A study of Mus musculus with 6 samples.

Results

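The genes described here are 10 members of the p53 and senescence programme, out of 38087 genes in the deposited table: Trp53, Mdm2, Cdkn1a, Cdkn2a, Ccng1, Gadd45a, Sesn2, Bax, Bbc3 and Trp53inp1. They were taken by gene symbol, and positions below are those of the table (mm10). RNA was sequenced from the cerebrum of C57BL6 mice of 24 months, 3 wild type (WT) and 3 Sgo1-/+. Sgo1-/+ mice carry a single working copy of Shugoshin 1, the protector of centromeric cohesion, in every cell, and serve as a model of cohesinopathy and chromosome instability. The mice were female except for those of WT replicate 1 and Sgo1-/+ replicate 2. All WT libraries were sequenced in run 258 and all Sgo1-/+ libraries in run 259, so that genotype and run cannot be told apart. Library totals were 11123917 to 12505561 estimated counts.

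p53, the product of Trp53, is a transcription factor that is stabilised after DNA damage and after faulty mitosis. It binds pairs of 10-base sites in or near its target genes and turns on inhibitors of the cell cycle, of which Cdkn1a (p21) is the best known, as well as repair factors, death factors of the Bcl-2 family and its own inhibitor Mdm2. Senescent cells are held out of the cell cycle by p21 and by the products of Cdkn2a, p16Ink4a and p19Arf, and Cdkn2a is a widely used marker of ageing tissue. Chromosome missegregation is a known trigger of p53, and the comparison asks whether these genes were higher in the Sgo1-/+ cerebrum.

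No member differed between the genotypes past the threshold. Of the 10 members, 9 passed the filter on low counts and were tested, all except Cdkn2a. In the quasi-likelihood test of edgeR over 16337 genes, adjusted by Benjamini-Hochberg, 0 members were called at an adjusted p under 0.05, against a background of 0.0% of all tested genes. DESeq2 called 3 of all genes and limma 0, and neither called a member. At an unadjusted p under 0.05 the count was 0 members, against 2.04% of all tested genes. The fitted log2 fold change was above 0 for 6 tested members and below 0 for 3, the furthest from 0 was 0.18 (Ccng1), and the median was 0.038, beside a median of -0.00069 and quartiles of -0.14 and 0.14 over all tested genes. The values of the WT and the Sgo1-/+ libraries overlapped for each of the 10 members, while 3.28% of all tested genes had every Sgo1-/+ library above every WT library and 3.57% had every one below.

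**Figure D1:**
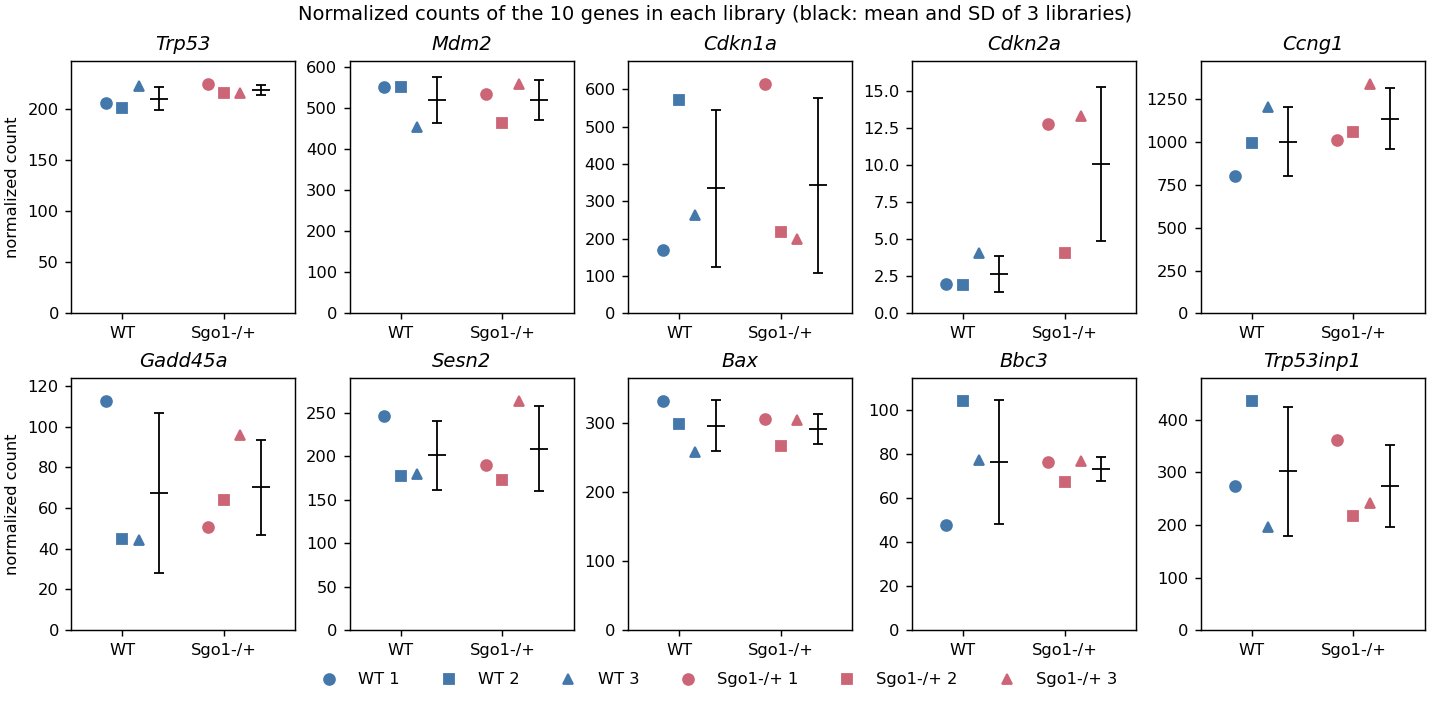
Normalized count (estimated count scaled to a common library size, linear axis from 0) of each of the 10 genes in the 3 WT and 3 Sgo1-/+ libraries, 1 point a library, with the mean and SD of each group in black. The values of WT and Sgo1-/+ overlap for every gene, and for Cdkn2a the Sgo1-/+ libraries 1 and 3 stand at 12.8 and 13.3 above all others.

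Several facts of the libraries bear on these values. WT replicate 1 stood apart, with a mean correlation to the others of 0.944 against 0.974 to 0.977. In it the summed normalized count of 7 cerebellar markers was 21070, against 299.3 to 1031 in the other 5 libraries, and that of 7 markers of cortex and hippocampus was 2022, against 5117 to 6063. The 7 brain stem markers summed to 4087 in it, against 28.8 to 61.5, and the 7 neuronal markers to 56870, against 109200 to 133500. This goes against the dissection described for the study, cerebrum with cerebellum and medulla left out. Each member is therefore also given without WT replicate 1. All 11 immediate early genes, which neurons turn on within minutes of activity, had a higher mean in Sgo1-/+ (summed level 2460 to 5674 in WT and 6105 to 11680 in Sgo1-/+). The 6 microglial markers summed to 3745 to 4554 in WT and 4725 to 5502 in Sgo1-/+. The part of these differences in the results was not tested. In whole tissue, fewer cells of a type and less RNA per cell cannot be told apart. Sgo1 itself was read too rarely to check the genotypes, at 0, 7 and 0 estimated counts in WT and 4, 2 and 0 in Sgo1-/+, where up to 3 counts cannot be told from 0.

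The promoters of these genes differ in how clearly they carry the p53 binding motif. RefSeq promoter windows of 300 bases (250 before and 50 after each transcription start, assembly GRCm38.p6) were held for 9 of the 10 members and were searched for the p53 half-site, a 10-base pattern that reads the same on both strands. A half-site lay in 8.36% of all 32851 windows and in 6 of the 13 windows of members, and 6 members had at least 1. The windows of Cdkn2a, Sesn2 and Bbc3 held none, and no window was held for Trp53inp1. Cdkn1a is shown first because the window at its upstream start held 2 half-sites separated by 12 bases. Only 0.0731% of all windows held 2 within 13 bases. The 100 bases before this start are at chr17:29090879-29090978 on the plus strand, with the half-sites in capitals.
Cdkn1a: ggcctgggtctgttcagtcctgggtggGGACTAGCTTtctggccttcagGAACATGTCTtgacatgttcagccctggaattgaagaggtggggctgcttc
The second of these half-sites, 51 bases before the upstream start and 2841 bases before the other annotated start, is followed with no gap by 10 bases that miss the pattern at 1 position, so that the stretch reads almost as a full site of 20 bases. Ccng1 is shown because its half-site is likewise preceded by 10 bases with 1 mismatch. A half-site beside 10 bases with at most 1 mismatch was found in 0.0883% of all windows (29 windows), a share computed after the member windows had been read. The lone half-sites of Trp53, Mdm2, Bax and Gadd45a are shown for contrast, each with 10 bases on either side, in capitals within the stretch and on the strand of the gene.
Ccng1: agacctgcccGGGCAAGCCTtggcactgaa
Trp53: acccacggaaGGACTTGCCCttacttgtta
Mdm2: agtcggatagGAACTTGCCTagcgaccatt
Bax: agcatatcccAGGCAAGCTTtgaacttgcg
Gadd45a: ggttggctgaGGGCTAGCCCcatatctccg
These half-sites are at chr11:40755462-40755471 (Ccng1, 185 bases before the start), chr11:69580284-69580293 (Trp53, 75 bases), chr10:117710935-117710944 (Mdm2, 186 bases), chr7:45467090-45467099 (Bax, 201 bases) and chr6:67037438-67037447 (Gadd45a, 40 bases). A match is a description of the letters and not a measured binding site, and binding in introns or further upstream was not searched.

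Trp53 (chr11:69580359-69591873, plus strand) was the steadiest of the members. Its normalized counts were 205.8, 201.3 and 222.6 in WT and 224.4, 215.5 and 216.1 in Sgo1-/+. The highest library exceeded the lowest 1.12-fold, and the spread within groups was 0.059 on the log2 scale, smaller than in all but 2.01% of tested genes. The log2 fold change was 0.062 (SE 0.122), with a 95% interval of -0.23 to 0.35, or 0.855-fold to 1.28-fold. Without WT replicate 1 it was 0.049. p53 activity is set mainly at the level of the protein, which these counts do not measure.

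Mdm2 (chr10:117688888-117710758, minus strand), the ubiquitin ligase that marks p53 for degradation and is itself a p53 target, had 549.7, 550.8 and 453.6 normalized counts in WT and 533.4, 464.1 and 557.8 in Sgo1-/+. The group means were 518.0 ± 55.8 and 518.4 ± 48.6 (SD, n = 3 each). Each group held one low library and a pair of high ones, and the log2 fold change was 0.0013 (SE 0.131, 95% interval -0.31 to 0.31), or 0.046 without WT replicate 1.

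Cdkn1a (chr17:29090979-29100722, plus strand), the CDK inhibitor p21, was the most variable tested member, and its variation did not follow genotype. The normalized counts were 170.6, 570.9 and 262.2 in WT and 614.0, 216.8 and 199.2 in Sgo1-/+. One library in each group, WT replicate 2 and Sgo1-/+ replicate 1, stood more than 2-fold above the other 4, and the highest was 3.60 times the lowest. The within-group spread of 0.89 on the log2 scale was larger than that of 93.6% of tested genes, whose median was 0.26. The group means were 334.6 ± 210 and 343.3 ± 235 (SD, n = 3 each), and the log2 fold change was 0.038 (SE 0.578, adjusted p = 0.9999), turning to -0.28 without WT replicate 1. Leaving out a high library gave 0.67 (WT replicate 2) or -0.68 (Sgo1-/+ replicate 1). Its 95% interval, -1.33 to 1.41, still holds a 2.66-fold rise, so a rise of up to that size was not excluded here.

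Cdkn2a (chr4:89274473-89294653, minus strand) was the member with the largest ratio between the group means (3.78), at counts close to the detection limit. The estimated counts were 2, 2 and 4 in WT and 12.9, 4 and 13 in Sgo1-/+. Sgo1-/+ replicates 1 and 3 lay above all WT libraries, and Sgo1-/+ replicate 2 and WT replicate 3 had 4 counts each, so the groups overlapped at that value. With the library total alone as the scale, these 2 libraries, at 4 counts each, changed order and the groups of Cdkn2a did not overlap. The share of all genes without overlap on that scale is not given here. Summed over the libraries, 8 counts stood against 30, a ratio of 3.82 after scaling with a 95% interval of 1.71 to 9.66 that covers counting error only and not the spread between mice. Between mice, the exact two-sided permutation test gave p = 0.2, where the smallest p that 3 against 3 libraries allow is 0.1. Fitted with the filter off, the log2 fold change was 1.88 (SE 0.712) at an unadjusted p of 0.0276 and an adjusted p of 0.950 (edgeR, 26061 genes, of which 2.16% were under 0.05 unadjusted). Without WT replicate 1 it was 1.73 (unadjusted p = 0.0611), in a fit whose filter Cdkn2a passed only through Sgo1-/+ replicates 1 and 3. The deposited counts are per gene and do not separate p16Ink4a from p19Arf, which are made from different first exons of this gene.

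Ccng1 (chr11:40748552-40755311, minus strand), cyclin G1, which recruits a phosphatase to Mdm2, had 802.5, 995.4 and 1203 normalized counts in WT and 1013, 1057 and 1337 in Sgo1-/+. The highest library was an Sgo1-/+ library and the lowest was WT replicate 1. The log2 fold change of 0.18 (SE 0.182, 95% interval -0.25 to 0.61) became 0.048 without that library, 0.050 without Sgo1-/+ replicate 3 and 0.34 without WT replicate 3.

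Gadd45a (chr6:67035096-67037457, minus strand) encodes a stress sensor that binds PCNA and p21 and takes part in repair and in the arrest before mitosis. It had 112.8, 44.7 and 44.5 normalized counts in WT and 50.7, 63.8 and 95.9 in Sgo1-/+. WT replicate 1 was the highest of the 6 libraries, while the other WT libraries were the lowest. With all libraries the log2 fold change was 0.060 (SE 0.445). Without WT replicate 1 it was 0.65 (SE 0.334, unadjusted p = 0.0904, adjusted p = 0.9995, edgeR), and Gadd45a then had every Sgo1-/+ library above both remaining WT libraries, as had 8.84% of all genes tested without it. On the opposite strand, E230016M11Rik overlaps 19.1% of the exonic bases of Gadd45a and was also highest in WT replicate 1, at 77.3 normalized counts against 36.2 to 53.8 elsewhere. Whether the counting used the strand is not given in the sources used here, so reads of the overlap may be shared.

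Sesn2 (chr4:132492032-132510501, minus strand), sestrin 2, which restrains mTORC1 under stress, had 246.7, 176.8 and 179.3 normalized counts in WT and 189.8, 172.2 and 264.0 in Sgo1-/+. One library of each group was high, WT replicate 1 and Sgo1-/+ replicate 3, the same libraries that were highest for Gadd45a. The log2 fold change was 0.053 (SE 0.222), and 0.23 without WT replicate 1. Summed markers of choroid plexus were also highest in these libraries, at 21030 and 23420 normalized counts against 290.5 to 7327 in the others, and so were those of oligodendrocytes, at 135800 and 128500 against 51640 to 74220. Their part in the levels of Sesn2 and Gadd45a was not tested.

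The death genes gave no separation of the genotypes. Bax (chr7:45461695-45466898, minus strand), which opens the outer mitochondrial membrane, had 331.9, 298.5 and 257.3 normalized counts in WT and 304.7, 266.3 and 303.3 in Sgo1-/+, with a log2 fold change of -0.022 (SE 0.141, 95% interval -0.36 to 0.31) that turned to 0.069 without WT replicate 1. Bbc3 (PUMA, chr7:16309616-16318205, plus strand), a BH3-only activator of Bax, had 47.7, 104.1 and 77.3 in WT and 76.2, 67.0 and 76.7 in Sgo1-/+. The WT libraries held both the lowest and the highest Bbc3 value, and the coefficient of variation was 37.0% in WT and 7.45% in Sgo1-/+. With all libraries the fitted log2 change was -0.053 (SE 0.305). It was -0.30 without WT replicate 1, when all Sgo1-/+ libraries lay below both WT libraries, as did those of 9.15% of all genes tested without it.

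Trp53inp1 (chr4:11156431-11174379, plus strand), a nuclear partner of p53 in stress-induced death and in autophagy, had 274.9, 436.2 and 195.9 normalized counts in WT and 362.1, 216.7 and 241.7 in Sgo1-/+. WT replicate 2 and Sgo1-/+ replicate 1 were the highest of their groups, the libraries that were also highest for Cdkn1a. The log2 fold change was -0.15 (SE 0.327, 95% interval -0.92 to 0.63), or -0.21 without WT replicate 1, and it turned to 0.22 without WT replicate 2.

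**Figure D2:**
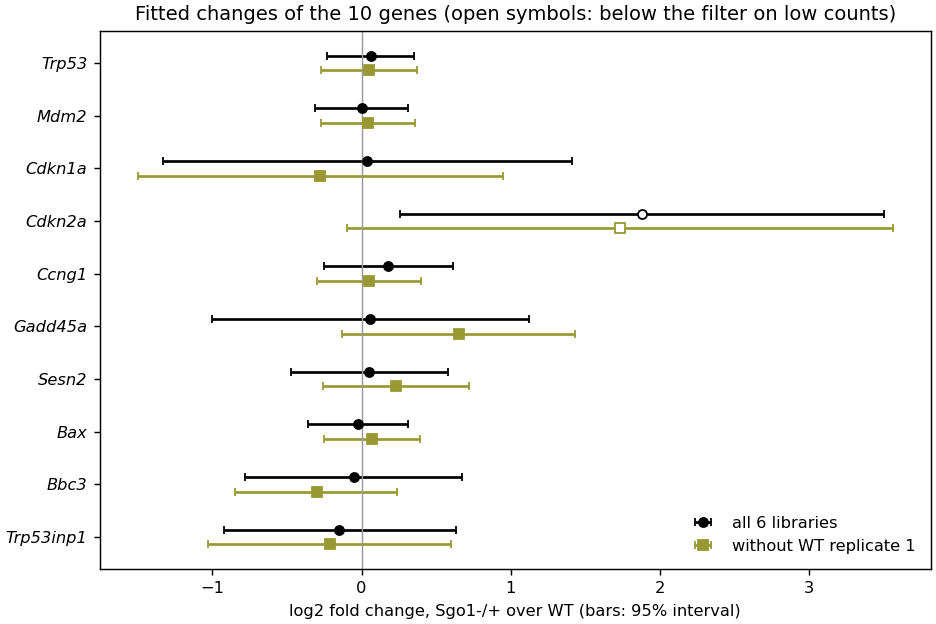
Log2 fold change of Sgo1-/+ over WT with its 95% interval for each of the 10 genes, from all 6 libraries (circles) and without WT replicate 1 (squares), edgeR. The intervals of Trp53, Mdm2 and Bax stay within 0.36 of 0 on the log2 scale with all libraries, and those of Cdkn1a and Gadd45a reach beyond 1. Cdkn2a (open symbols, below the filter with all 6 libraries) is at 1.88 with the filter off. It is at 1.73 without WT replicate 1, a fit in which it passed the filter.

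Without WT replicate 1, 0 of the 10 members had an unadjusted p under 0.05, against 3.77% of all genes tested. Cdkn2a passed the filter in that fit only through its high counts in Sgo1-/+ replicates 1 and 3. With Cdkn2a included, 7 members were fitted higher and 3 lower, and the median log2 fold change was 0.048. Over all genes of that fit 8518 were higher and 8099 lower, with a median of 0.0055.

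The transcript levels of the members covered a wide range in this tissue. Per kilobase of exon and per 1000000 counts, Ccng1 had a level of 25.2 (18.9 to 31.5 over the 6 libraries) and Bax of 15.4 (13.5 to 17.4). These stood clear of each other and of Mdm2, at 8.45 (7.39 to 9.09). Mdm2, Cdkn1a (7.90), Sesn2 (4.88), Trp53 (4.39), Trp53inp1 (3.68), Gadd45a (3.23) and Bbc3 (2.92) followed, each overlapping its neighbour in the order over the libraries. Cdkn2a was lowest at 0.449 (0.135 to 0.940), below every library of Bbc3.

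The libraries with high Cdkn1a were also high in a small set of other transcripts. By the mean absolute difference of centred log2 levels over the 6 libraries, tested genes close to it included Vwf (0.108) and Gm6169 (0.172), where the median over all tested genes was 0.680. Vwf, von Willebrand factor of endothelial cells, had 265.9, 819.9 and 348.8 normalized counts in WT and 876.8, 332.1 and 357.5 in Sgo1-/+. Gm6169, a predicted gene, ran from 8.31 to 22.9. Like Cdkn1a, both were high in WT replicate 2 and Sgo1-/+ replicate 1 and did not separate the genotypes. Since they were picked from 16337 genes by this likeness, their nearness is a description.

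Endothelial markers did not all share that pattern. Of the 6 markers, Ly6c1 ranked 7 and Pecam1 ranked 71 in nearness to Cdkn1a, while Cdh5 ranked 1970, Flt1 5343, Cldn5 5535 and Slco1a4 6297. Their summed level was 3093 in WT replicate 2 and 4038 in Sgo1-/+ replicate 1, against 2628 to 2900 in the 4 libraries with low Cdkn1a. Blood markers summed to 4833 in WT replicate 2 and 12900 in Sgo1-/+ replicate 1, against 1095 to 4196 in the others. Both sums were highest in the pair of libraries with high Cdkn1a, and their part in it was not tested. Ddit4, a stress-induced inhibitor of mTORC1, ranked 29 with 1039 and 1004 normalized counts in the same pair of libraries and 390.7 to 497.9 in the others, and Trp53inp1 ranked 254. Ddit4 and Trp53inp1 were picked by hand for this comparison, and Ddit4 falls under none of the naming rules. The ranks of the other p53 targets are not given here, so the likeness of these genes is a description.

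**Figure D3:**
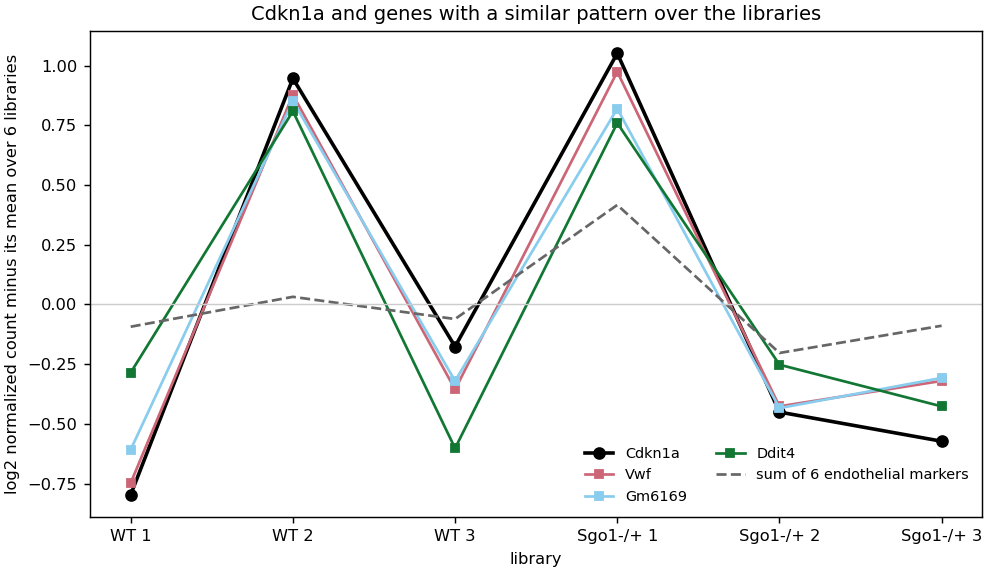
Log2 normalized count minus its mean over the 6 libraries, by library, for Cdkn1a, Vwf, Gm6169, Ddit4 and the sum of 6 endothelial markers. Cdkn1a, Vwf, Gm6169 and Ddit4 peak in WT 2 and Sgo1-/+ 1, and the endothelial sum is furthest above its mean in Sgo1-/+ 1. Vwf and Gm6169 were picked by their likeness to Cdkn1a, and Ddit4 by hand.

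The rest of the pathway was read from 7 lists with 118 genes, of which 103 were tested. Of these 0 were called, 48 were fitted higher and 55 lower, where the median log2 fold change of all tested genes was -0.00069. At an unadjusted p under 0.05 there was 1 higher gene and 3 lower, beside 2.04% of all tested genes (132 higher and 201 lower, edgeR). In 2 of the 103 all Sgo1-/+ libraries lay above all WT libraries and in 4 below, beside 3.28% and 3.57% of all tested genes. Without WT replicate 1, 104 were tested, 41 fitted higher and 63 lower, and 0 were called. Of all 16617 genes tested without that library, 8518 were fitted higher and 8099 lower. In that fit 2 higher genes (Plk3 and Phlda3) and 3 lower ones (Atm, Casp1 and Cxcl10) were under an unadjusted p of 0.05, beside 3.77% of all genes, and 5 of the 104 separated upward and 12 downward, beside 8.84% and 9.15% of all genes. None of the values that follow passed adjustment, with an adjusted p of 0.9999 for each with all libraries (edgeR).

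Among 19 regulators of the p53 network, a list that also holds Trp63 and Trp73, the median log2 fold change was -0.031. Atm, the kinase that signals DNA double-strand breaks to p53, had 334.1, 331.0 and 343.6 normalized counts in WT and 257.1, 285.9 and 280.1 in Sgo1-/+, with a log2 fold change of -0.29 (SE 0.111, unadjusted p = 0.0329). All Sgo1-/+ libraries lay below all WT libraries, and without WT replicate 1 the value was -0.30 (unadjusted p = 0.0421). Usp7, the deubiquitinase that stabilises Mdm2 and p53, was the most abundant of the list and also separated, at 1938, 1999 and 2154 against 1909, 1855 and 1844, with a fitted log2 fold change of -0.12 (SE 0.0972). Mdc1, a scaffold of the damage response, had a log2 fold change of -0.010.

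The other p53 targets were centred near 0 as well. The median log2 fold change was 0.064 over 17 tested targets of cell cycle and repair (-0.059 without WT replicate 1), -0.011 over 15 of cell death and -0.026 over 14 of metabolism and stress. Plk2, a stress-induced kinase of neurons, had 501.2 normalized counts in WT replicate 1 and 1962 to 2548 in the other 5 libraries, so its log2 fold change of 0.58 became 0.16 without that library. Fbxw7, a subunit of a ubiquitin ligase for cyclin E, was likewise lowest in WT replicate 1, at 1107 against 2050 to 2685, with log2 fold changes of 0.18 and, without it, -0.10. Casp1, the inflammatory caspase, had 60.9, 88.4 and 65.9 normalized counts in WT and 43.8, 28.7 and 38.1 in Sgo1-/+. All 3 Sgo1-/+ libraries lay below the lowest WT library. The fitted difference of the groups was -0.97 on the log2 scale (SE 0.274, unadjusted p = 0.00992), and -1.07 without WT replicate 1. Phlda3, an inhibitor of Akt, and Plk3, a damage-responsive kinase, were singled out after their values were seen, since they had the Gadd45a pattern. Phlda3 had 470.4, 251.5 and 254.0 normalized counts in WT and 307.6, 364.0 and 380.6 in Sgo1-/+, and its log2 fold change went from 0.11 to 0.47 when WT replicate 1 was left out (unadjusted p = 0.0106, adjusted p = 0.9995, edgeR). Plk3 had 186.7, 86.5 and 96.3 in WT and 119.8, 182.1 and 129.5 in Sgo1-/+, with log2 fold changes of 0.23 and, without that library, 0.66. The abundant targets Ei24, Trp53i11, Gpx1 and Ak1 had log2 fold changes of -0.011, -0.035, 0.050 and -0.070.

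The list of CDK inhibitors and pocket proteins also held D cyclins and their kinases. These were Ccnd1, Ccnd2, Cdk4 and Cdk6, with log2 fold changes of 0.34, 0.58, 0.051 and -0.42. The whole list had the lowest list median, -0.27 over 11 tested genes. This median moved between -0.021 (without Sgo1-/+ replicate 2) and -0.31 (without Sgo1-/+ replicate 3) when 1 library was left out. It was -0.046 without WT replicate 1, -0.088 without WT replicate 2 and -0.13 without WT replicate 3. Rb1, the retinoblastoma protein that p21 and p16Ink4a act through, had 619.2, 610.3 and 518.2 normalized counts in WT and 454.7, 484.2 and 477.4 in Sgo1-/+. The groups did not overlap, and the log2 fold change was -0.30 (SE 0.114, unadjusted p = 0.0325, and 0.0599 without WT replicate 1). Cdkn1b (p27) had 1084 normalized counts in WT replicate 1 and 568.9 to 730.0 elsewhere, and its log2 fold change went from -0.31 to -0.040 without that library. Cdkn2d (p19Ink4d) stood at 0.037. Cdkn2b (p15), the neighbour of Cdkn2a in the genome and named here for that reason, was below the filter at 4.03, 7.71 and 10.1 normalized counts in WT and 3.97, 0 and 12.3 in Sgo1-/+, and did not show the high values of Cdkn2a in Sgo1-/+ replicate 1.

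Of 24 genes of the senescence secretory programme and nucleus, 18 were tested and the median log2 fold change was -0.037. Il6, Il1b, Tnf, Ccl2, Cxcl1 and Mmp3 were below the filter. Timp2 and Hmgb1, the most abundant per length, had log2 fold changes of -0.038 and -0.037.

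Of 14 proliferation genes, 9 passed the filter, with a median log2 fold change of -0.039. Cenpa, the histone H3 variant that marks centromeres, had 6.28, 7.62 and 13.3 normalized counts in WT and 29.8, 18.3 and 17.4 in Sgo1-/+. All Sgo1-/+ libraries lay above all WT libraries, and the log2 fold change was 1.28 (SE 0.431, unadjusted p = 0.0215), or 1.07 without WT replicate 1 (unadjusted p = 0.0636). Ccna2 and Mcm2, the list's most abundant genes per length, had log2 fold changes of -0.092 and -0.039, and Mki67, the Ki-67 antigen of cycling cells, named after its values were seen, ran from 10.1 to 55.2 normalized counts in WT and from 10.7 to 51.6 in Sgo1-/+.

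**Figure D4:**
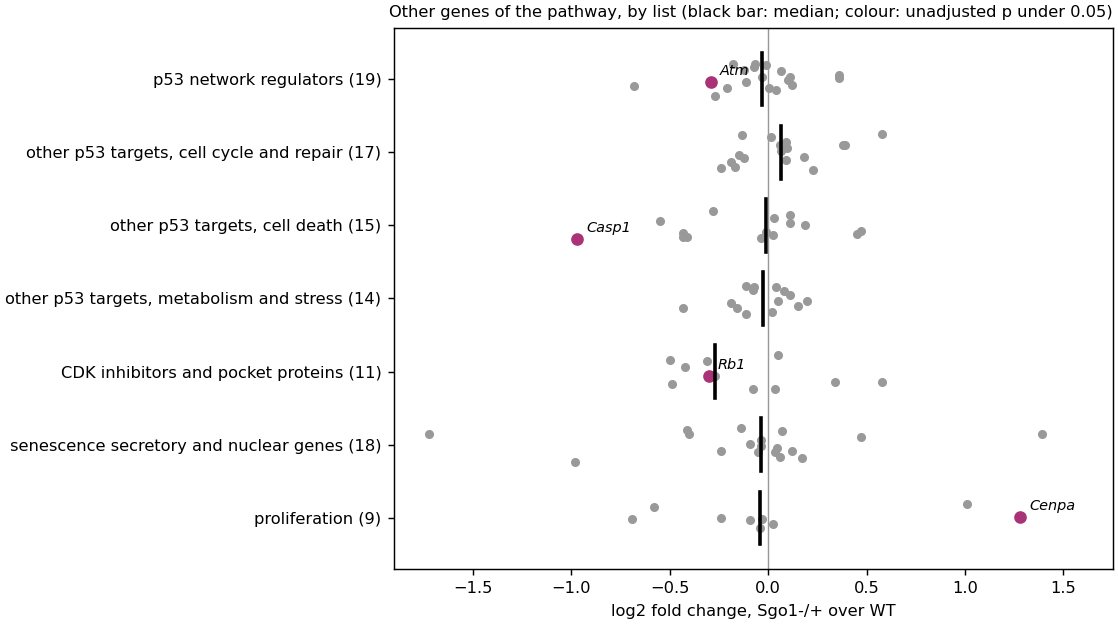
Log2 fold change of Sgo1-/+ over WT for the 103 tested genes of 7 lists, 1 point a gene (vertical scatter within a list has no meaning), with the list median as a black bar and genes at an unadjusted p under 0.05 coloured and named. Medians run from -0.27 to 0.064, and Atm, Casp1, Rb1 and Cenpa are the named genes, none of which passed adjustment.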

How the data were processed

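Total RNA of 6 cerebra was made into TruSeq libraries and sequenced as paired reads on a MiSeq. The authors aligned the reads to mm10 in Strand NGS and deposited estimated counts, not normalized, for 38087 Ensembl genes in each library. The labels also name BWA and edgeR, with no role stated. The Ensembl release and the use of strand are not given in the sources used here. The 6 columns of the authors' normalized values and 4 columns of their own comparison (fold changes and their direction) were not used. The genotype of a column was taken from its sample number, and its replicate number from the run position in the column name, which is an inference. Xist and Ddx3y followed the labelled sex in 6 of 6 libraries.

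The estimated counts, 47.4% to 48.6% of which were not whole per library, were rounded and fitted with edgeR 4.0.16 in R 4.3.3 (quasi-likelihood, TMM, default filter, no covariates, all 16337 genes passing the filter, Benjamini-Hochberg). A gene was called at an adjusted p under 0.05. For normalized counts, estimated counts were brought to the mean TMM-scaled library size of the 6 libraries. The SE is the log2 fold change divided by the square root of F. Levels per length use the union of exons (GENCODE M21, mm10). Likeness to Cdkn1a was taken with 0.5 added before log2. Up to 3 counts were treated as not distinguishable from 0, for counting error only. Each group held both sexes, so its libraries were not all from a single mouse. The labels do not describe how the samples of a group were bred or handled apart. The p-values therefore measure only the spread between these samples, part of which may be technical.

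The members and lists were chosen with earlier results of these data known. Named genes are all members, the 2 most abundant tested genes of each list, every tested list gene at an unadjusted p under 0.05, the 3 genes nearest Cdkn1a, Sgo1, and genes overlapping members, of which some are not reported here. Alternatives were DESeq2 1.42.0, limma 3.58.1 (log2 of the count plus 1), other size factors, other filters (none, or at least 10 counts in each library), a replicate block, a sex term and leaving out libraries one by one. The fit was tested before use on simulated data whose spread between libraries was set lower than in these data (biological coefficient of variation 25.9%). Recovery of changes at the spread of these data was not tested.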

Additional observations from a re-analysis of the deposited data

How the results depend on the processing

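No alternative called a member. Over 13 alternatives the members had 121 further values, of which 97 kept their direction and 24 turned, with adjusted p-values of 0.764 to 1 (edgeR, DESeq2, limma). The log2 fold changes of Trp53 and Ccng1 turned under none of the 13. That of Cdkn2a did not turn in the 4 fits it could enter beside the one with no filter (without WT replicate 1, 2 or 3, or Sgo1-/+ replicate 2). Cdkn2a passed the filter in those 4 only through its high counts in Sgo1-/+ replicates 1 and 3. Its direction there follows from that selection and is not support. Leaving out 1 library at a time gave ranges of -0.68 to 0.67 for Cdkn1a, -0.084 to 0.069 for Mdm2, -0.40 to 0.22 for Trp53inp1, -0.23 to 0.65 for Gadd45a, -0.30 to 0.24 for Bbc3, 0.033 to 0.11 for Trp53, 0.048 to 0.34 for Ccng1, -0.11 to 0.069 for Bax and -0.15 to 0.23 for Sesn2. Mdm2 was at -0.0012 with DESeq2, -0.0011 with DESeq2 size factors, -0.0027 with no filter and -0.0012 with sex as a covariate, and Bbc3 was at 0.013 with limma. Replicate numbers did not pair the samples (correlations of the deviations of same-numbered libraries -0.152, 0.0342 and -0.202). With the replicate block 0 genes were called, Cdkn1a was at -0.017 and Bbc3 at 0.0086.

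DESeq2 called 3 genes, none of them in a list used here (LAMTOR3, AA465934 and Ablim3), and edgeR called 1 without Sgo1-/+ replicate 2 (Gm13841) and 0 without each other library. Genes at an unadjusted p under 0.05 numbered 333 with all libraries, 563 with no filter, 240 to 1040 when 1 library was left out, 626 without WT replicate 1 and 1040 without WT replicate 3. For the members this count was 0 with all libraries and 1 (Cdkn2a) with no filter, which lets it in. It ran from 0 to 1 when 1 library was left out, the 1 being Cdkn2a without WT replicate 3 (log2 fold change 2.30) or without Sgo1-/+ replicate 2 (2.25). These fits admitted Cdkn2a only through its high Sgo1-/+ libraries, so the values are a description. With library totals as the scale 1 member (Cdkn2a) did not overlap, through the order of 2 libraries at 4 counts each. The share of all genes without overlap on that scale is not given here. Of 56 list medians under alternatives 6 moved by more than the spread between replicates, and the cause was not tested. The biological coefficient of variation was 25.9%, and 17.6% without WT replicate 1. With 3 libraries a group, the intervals of Cdkn1a and Gadd45a reached past 2-fold.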
